A study of Mus musculus with 6 samples.

Results

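The 8 genes described here encode feedback inhibitors of MAP kinase signalling: the MAP kinase phosphatases Dusp1, Dusp2, Dusp4, Dusp5, Dusp6 and Dusp16, and the inhibitors Spry2 and Spred1 of the Sprouty and Spred families. They are the rows of the expression table that carry these gene names, 8 of 34745 genes. RNA sequencing compared RAW 264.7 cells given bisphenol AP (BPAP), a bisphenol A analogue, with cells given the solvent DMSO, in 3 libraries each. RAW 264.7 is a virus-transformed mouse macrophage line, so the results describe 1 line and not primary macrophages. The cells grew in DMEM with fetal bovine serum, no genotype or stimulus separated the groups, and the dose, the exposure time and whether BPAP cells also received DMSO are not stated in the labels used here.

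MAP kinases (ERK, JNK and p38) are switched on by phosphorylation of a threonine and a tyrosine in their activation loop. Dual-specificity phosphatases remove both phosphates, and many are themselves transcribed in response to the kinases they switch off. Sprouty and Spred proteins act upstream and dampen the signal from receptors through RAS to RAF and ERK. In macrophages these loops shape the duration of the response to microbial products, and mice without Dusp1 make more inflammatory cytokines when given endotoxin.

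Total counts ran from 12056332 to 12427563 in the BPAP libraries and from 11084705 to 13806559 in the DMSO libraries. The labels do not say whether replicates are separate cultures, and p-values rest on variation among libraries that may be technical only. Of 12 macrophage markers 11 were expressed, with a summed level of 5548 to 5965 CPM (counts per library total after TMM scaling) in BPAP libraries and 4947 to 5585 CPM in DMSO libraries, and Mertk had 0 counts in every library. Itgam has 2 rows, of which the first was used, and it shares 3450 exonic bases on the same strand with Gm49368. Of the 11 markers tested, 6 were higher and 2 lower in BPAP (72.7% called, against 31.7% of all tested genes). Cd14 and Fcgr1, named with their values known like the next pair, were 2.46-fold and 2.35-fold higher (edgeR adjusted p = 0.0121 and 0.000421). Ptprc and Csf1r had log2 fold changes of -0.64 and -0.41 (edgeR adjusted p = 0.00181 and 0.013). Corrected for length and GC as described next, 2 were higher and 1 lower, Ptprc was at -0.02, and the part of these markers in the results was not tested. Of 16 markers of epithelial, T, B, fibroblast, endothelial and neutrophil cells, 10 had 0 counts in every library. Their summed level was 0.570 to 1.23 CPM in BPAP libraries and 0.367 to 1.06 CPM in DMSO libraries. DMSO 1 stood apart in its mitochondrial reads, 10.8% of its counts against 6.53% to 7.55% in the BPAP libraries and 7.02% and 7.35% in the other DMSO libraries. Fold changes fell with gene length across all tested genes (Spearman correlation with merged exon length -0.40, genes not being independent replicates), and this trend runs with the treatment, so the 2 cannot be told apart. Values corrected for length and GC, by removing from every library its smooth trend in both, are given beside the members and lists. After this correction 22.7% of 11665 genes passed (11.8% higher and 10.9% lower).

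The 250 bases before the RefSeq gene start (build GRCm38.p6) were matched by symbol for 7 members, all but Dusp4. The upstream sequences of Dusp1, Dusp5 and Dusp6 are shown as examples of windows with and without the motifs searched, and were chosen with the fold changes known. Of the members not shown, Dusp2 was higher in BPAP cells and held none of them, Dusp16 did not pass the test and held a half-site, and Spry2 and Spred1 did not pass and held none. Capitals mark a cyclic AMP response element (TGACGTCA), its half-site (TGACG, which the full element contains on each strand) or a CArG box, the site of serum response factor, on either strand. The Dusp1 stretch is chr17:26508520-26508722 on the minus strand, the Dusp5 stretch chr19:53528895-53529108 on the plus strand and the Dusp6 stretch chr10:99262981-99263230 on the plus strand. Each is written 5′ to 3′ in the direction of transcription and stops before the first annotated exon base met in its window. Positions are counted back from the RefSeq start. The annotated Dusp1 gene runs further upstream, to 26562128, so the Dusp1 stretch lies inside that annotation.
Dusp1: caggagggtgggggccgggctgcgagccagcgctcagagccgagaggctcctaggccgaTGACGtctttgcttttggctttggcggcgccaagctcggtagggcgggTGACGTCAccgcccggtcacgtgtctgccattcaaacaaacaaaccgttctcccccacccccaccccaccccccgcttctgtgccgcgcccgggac
Dusp5: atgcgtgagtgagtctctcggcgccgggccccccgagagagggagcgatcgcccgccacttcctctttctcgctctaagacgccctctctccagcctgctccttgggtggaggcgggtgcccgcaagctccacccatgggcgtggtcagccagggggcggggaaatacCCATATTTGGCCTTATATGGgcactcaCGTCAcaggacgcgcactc
Dusp6: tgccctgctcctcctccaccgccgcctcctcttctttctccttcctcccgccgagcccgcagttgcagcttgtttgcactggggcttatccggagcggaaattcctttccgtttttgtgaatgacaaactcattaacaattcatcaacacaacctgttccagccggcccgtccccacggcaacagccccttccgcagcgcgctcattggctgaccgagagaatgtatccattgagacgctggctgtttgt

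The full element TGACGTCA was found in 1 of the 7 members, Dusp1, at 143 to 136 bases before its start, and in 1.62% of 27025 promoters of the same length. The half-site TGACG was found in Dusp1, Dusp5 and Dusp16 and in 17.9% of all promoters. A CArG box was found in Dusp5 alone of the members, in 2 adjoining copies at 82 to 73 and 72 to 63 bases before the start, and in 1.4% of all promoters. No member held the AP-1 site TGANTCA, the NF-kB site or the ATF4 element TGATGNAA, which 6.87%, 3.75% and 3.53% of all promoters held. A match describes the letters of the window and not a bound site.

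Dusp1, Dusp2, Dusp4 and Dusp5 were higher in BPAP cells, by 1.47-fold to 2.4-fold, while Dusp6, Dusp16, Spry2 and Spred1 did not pass the test. All 8 members passed the filter on low counts and were tested. By the quasi-likelihood test of edgeR, at a Benjamini-Hochberg adjusted p of 0.05 over 11711 genes, 4 of the 8 passed, where 31.7% of all tested genes passed (16.2% higher and 15.5% lower). The members' median log2 fold change was 0.48, against 0.02 for all tested genes. Corrected for length and GC, 5 of the 8 passed, all higher, where 22.7% of 11665 genes passed (11.8% higher and 10.9% lower). The corrected medians were 0.37 for the members and 0.01 for all tested genes. The values of the groups did not overlap in 6 members, where 49% of all tested genes showed no overlap. These are bulk libraries, in which a change in the share of cells that express a gene and a change in RNA per cell cannot be told apart.

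**Figure D1:**
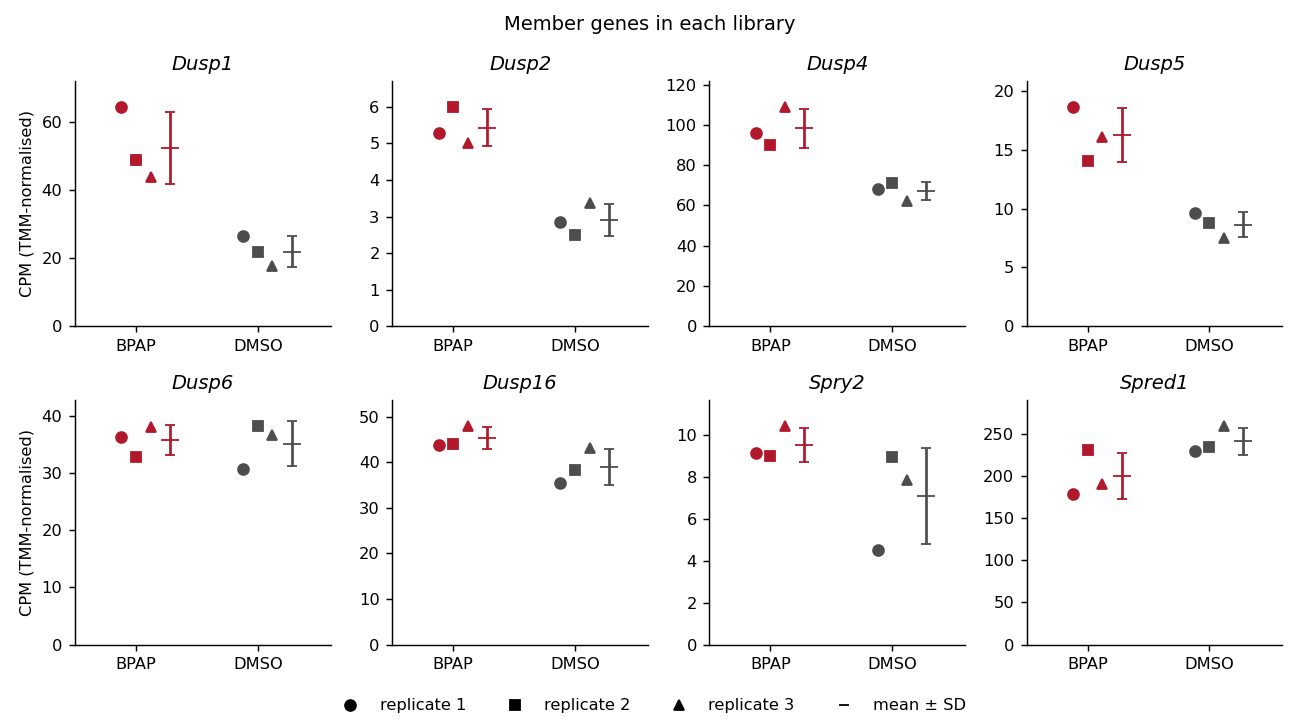
TMM-normalised CPM (vertical axis from 0) of the 8 member genes in each library, BPAP in red and DMSO in grey, with a marker shape per replicate and the mean ± SD beside the points. All 3 BPAP libraries lie above all 3 DMSO libraries for Dusp1, Dusp2, Dusp4, Dusp5, Dusp16 and Spry2, and the groups overlap for Dusp6 and Spred1.

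Dusp1, Dusp2, Dusp4 and Dusp5 encode the inducible phosphatases that act mainly in the nucleus. Dusp1 (chromosome 17, 26505590 to 26508519, GRCm38, minus strand) encodes the phosphatase that acts on p38 and JNK and restrains cytokine production. Its level was 64.5, 48.9 and 44.1 CPM in BPAP cells and 26.5, 21.7 and 17.6 CPM in DMSO cells. Every BPAP library was above every DMSO library, and the lowest BPAP value was well clear of the highest DMSO value. The means were 52.5 ± 10.7 CPM in BPAP and 21.9 ± 4.47 CPM in DMSO (SD, n = 3 each), a log2 fold change of 1.26 (SE 0.18, 95% interval 0.86 to 1.66, edgeR adjusted p = 0.00153). Corrected for length and GC it was 1.10 (edgeR adjusted p = 0.0065). The annotated Dusp1 gene shares 11 exonic bases with Ergic1 on the opposite strand, a gene with a mean of 1150 counts. That annotation runs to 26562128, beyond the deposited locus, and whether the overlap touches any counted reads was not tested.

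Dusp5 (chromosome 19, 53529109 to 53542431, plus strand) encodes a nuclear phosphatase that acts on ERK alone and also anchors it there. It had 18.6, 14.1 and 16.1 CPM in BPAP cells and 9.64, 8.76 and 7.54 CPM in DMSO cells. The groups were apart in every library, and the gene rose 1.89-fold (log2 fold change 0.92, SE 0.16, 95% interval 0.57 to 1.26, edgeR adjusted p = 0.00272). The value corrected for length and GC was 0.72 (edgeR adjusted p = 0.0151). An annotated antisense transcript, AC137853.2, covers 547 of its exonic bases, so without a stated strand setting some of its reads are uncertain.

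Dusp2 (chromosome 2, 127336159 to 127338376, plus strand) encodes a nuclear phosphatase best known from activated leukocytes. Its counts were the lowest among the members, 65, 72 and 61 in BPAP libraries and 31, 32 and 48 in DMSO libraries. In CPM these are 5.29, 5.99 and 5.00 for BPAP and 2.85, 2.50 and 3.38 for DMSO, again without overlap. The gene rose 1.86-fold (log2 fold change 0.89, SE 0.20, 95% interval 0.45 to 1.33, edgeR adjusted p = 0.00839), and 0.63 on the log2 scale once corrected for length and GC (edgeR adjusted p = 0.0407).

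Dusp4 (chromosome 8, 34807297 to 34819894, plus strand) encodes a nuclear phosphatase of ERK and JNK. It was the most abundant phosphatase of the set, with 96.2, 89.9 and 109 CPM in BPAP cells and 68.0, 71.0 and 62.1 CPM in DMSO cells. The groups did not overlap, but the change was the smallest of the 4 that passed: 1.47-fold, with a log2 fold change of 0.55 (SE 0.10, 95% interval 0.33 to 0.78, edgeR adjusted p = 0.00369). After the same correction it was 0.38 (edgeR adjusted p = 0.0318).

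Dusp6 and Dusp16 encode phosphatases found in the cytoplasm, and neither passed the test. Dusp6 (chromosome 10, 99263231 to 99267488, plus strand), whose product is specific for ERK, had 36.3, 32.9 and 38 CPM in BPAP cells and 30.7, 38.3 and 36.6 CPM in DMSO cells. The groups covered nearly the same range. The log2 fold change was 0.02, with a 95% interval of -0.24 to 0.28 (edgeR adjusted p = 0.903), and it changed sign between settings, at -0.14 when corrected for length and GC and -0.09 without DMSO 1. The lower bound for each of Dusp1, Dusp2, Dusp4 and Dusp5 lay above the upper bound for Dusp6, at 0.86, 0.45, 0.33 and 0.57, although the difference between genes was not itself tested.

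Dusp16 (chromosome 6, 134715468 to 134792625, minus strand), whose product acts on JNK and p38, had 43.8, 44.1 and 48.1 CPM in BPAP cells and 35.4, 38.4 and 43.3 CPM in DMSO cells. The groups did not overlap, but the highest DMSO library came within a narrow gap of the lowest BPAP library. Its log2 fold change was 0.21 (SE 0.11, 95% interval -0.02 to 0.45, edgeR adjusted p = 0.15). Dusp16 is the longest member, with 7798 bases of merged exons, where the median tested gene has 4296. Corrected for length and GC, its fold change on the log2 scale was 0.36 and passed (edgeR adjusted p = 0.0286).

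Spry2 (chromosome 14, 105891949 to 105896819, minus strand) encodes a Sprouty protein that restrains signalling from growth factor receptors to RAS and ERK. Its values were 9.11, 8.99 and 10.4 CPM in BPAP cells and 4.50, 8.92 and 7.82 CPM in DMSO cells. DMSO 1 was far below the other DMSO libraries, and DMSO 2 almost reached the lowest BPAP library. The log2 fold change was 0.41 (SE 0.22, 95% interval -0.08 to 0.91, edgeR adjusted p = 0.182), and 0.17 without DMSO 1, the library with the high mitochondrial share. The spread was wider among the DMSO libraries, with means of 9.51 ± 0.79 CPM in BPAP and 7.08 ± 2.30 CPM in DMSO (SD, n = 3 each).

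Spred1 (chromosome 2, 117121374 to 117182279, plus strand) encodes a membrane-bound inhibitor that recruits the RAS inactivator neurofibromin. It had 179, 231 and 190 CPM in BPAP cells and 230, 235 and 260 CPM in DMSO cells, the only member with a negative fold change. BPAP 1 and BPAP 3 lay below all DMSO libraries, and BPAP 2 lay among them. The log2 fold change was -0.27 (SE 0.11, 95% interval -0.51 to -0.03, unadjusted p = 0.0303, edgeR adjusted p = 0.079), and without BPAP 2 it was -0.39 and passed (edgeR adjusted p = 0.00876). After correction for length and GC it was 0.01 (edgeR adjusted p = 0.983). Its merged exons hold 6784 bases at a GC content of 41.5%, and the trend fitted for a gene of that length and GC came to -0.26 on the log2 scale.

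**Figure D2:**
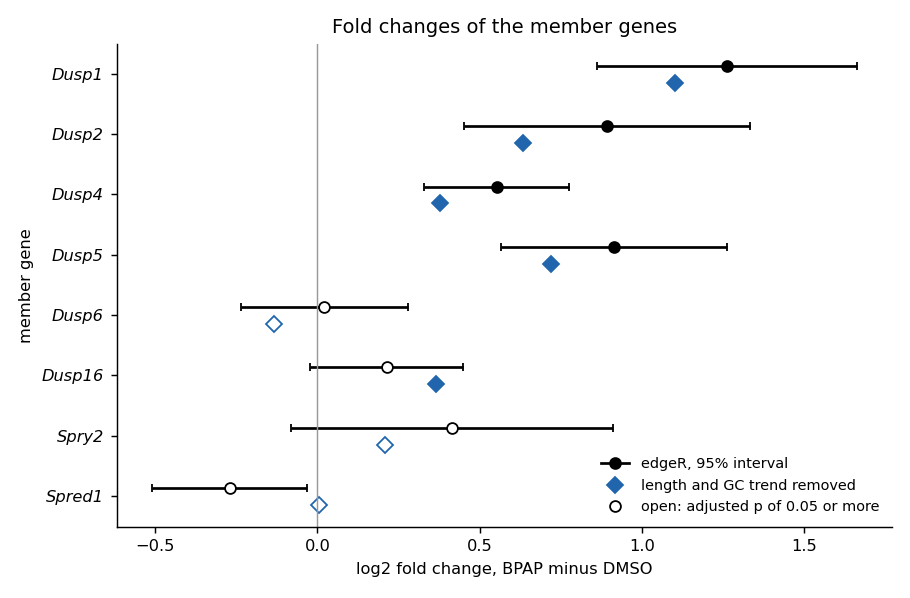
Log2 fold changes (BPAP minus DMSO, horizontal axis) of the 8 members from edgeR's fit with 95% intervals (black) and with the length and GC trend removed (blue diamonds, no interval drawn). Filled markers have an adjusted p under 0.05. Dusp1, Dusp2, Dusp4 and Dusp5 are filled in both, Dusp16 only with the trend removed, and Spred1 lies at -0.27 and 0.01.

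Count ratios within a library do not depend on how libraries are scaled, and they were set side by side for the nuclear phosphatases and Dusp6. The Dusp1 to Dusp6 count ratio was 1.78, 1.49 and 1.16 in BPAP libraries and 0.865, 0.566 and 0.482 in DMSO libraries. Dusp1 therefore had more counts than Dusp6 in every BPAP library and fewer in every DMSO library. The Dusp5 to Dusp6 count ratio averaged 0.455 ± 0.051 in BPAP and 0.25 ± 0.057 in DMSO, and the Dusp2 to Dusp6 count ratio 0.153 ± 0.026 in BPAP and 0.0836 ± 0.0157 in DMSO (SD, n = 3 each). For Dusp4 to Dusp6 the count ratios were 2.65, 2.73 and 2.86 in BPAP and 2.22, 1.85 and 1.70 in DMSO. None of these 4 ratios overlapped between the groups. They share Dusp6 as denominator and were chosen with the fold changes known, so they carry no test.

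Levels between members were compared per length, on the deposited FPKM scale. In BPAP cells the level of Dusp4 (35.5 ± 3.19 FPKM) and of Spred1 (28.1 ± 4.05) came first, followed by Dusp6 (12.6 ± 0.82), Dusp1 (10.1 ± 2.06), Dusp5 (6.50 ± 0.90), Spry2 (4.51 ± 0.34), Dusp16 (3.45 ± 0.16) and Dusp2 (2.26 ± 0.23; SD, n = 3 each). Libraries of Dusp6 and Dusp1 overlapped, and those of Dusp4 and Spred1 met at 32.7 FPKM, while the later neighbours did not overlap. In DMSO cells the order of FPKM levels was Spred1 (34.6 ± 2.98), Dusp4 (24.7 ± 1.55), Dusp6 (12.7 ± 1.70), Dusp1 (4.30 ± 0.77), Dusp5 (3.52 ± 0.36), Spry2 (3.44 ± 1.17), Dusp16 (3.04 ± 0.37) and Dusp2 (1.24 ± 0.20). There Dusp1, Dusp5, Spry2 and Dusp16 overlapped their neighbours. Spred1 thus had the highest FPKM level of the members in DMSO cells and Dusp4 in BPAP cells.

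**Figure D3:**
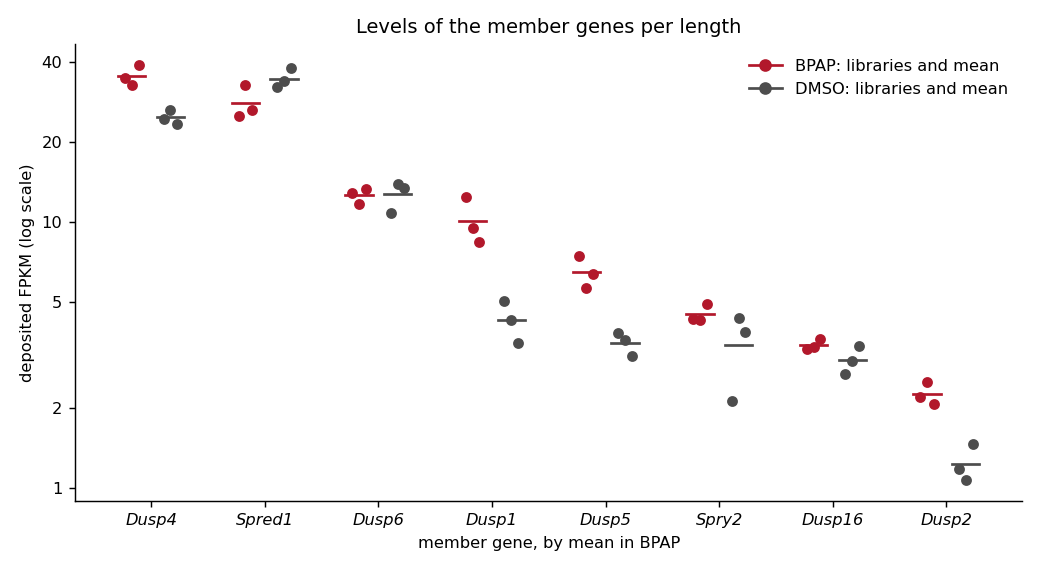
Deposited FPKM (vertical axis, log scale) of the members in each library, BPAP in red and DMSO in grey, with a line at each group mean; genes run by their BPAP mean. Dusp4 and Spred1 lie highest, Dusp2 lowest, and Dusp1 lies nearer to Dusp6 in BPAP than in DMSO.

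The places of Dusp1 and Dusp16 depend on the length used, so their FPKM order is not firm. The counts and FPKM of Dusp1 imply a length of 5142 bases, more than its deposited locus (26505590 to 26508519) spans. Its merged exons hold 3311 bases, some of them upstream of that locus. Per kilobase of merged exons, the Dusp1 level was 15.9 ± 3.22 CPM per kb in BPAP and 6.63 ± 1.35 in DMSO, against 11.4 ± 0.83 in BPAP and 11.2 ± 1.27 in DMSO for Dusp6 (SD, n = 3 each). On that scale Dusp1 stood above Dusp6 in BPAP cells and below it in DMSO cells. Dusp16, whose counts and FPKM imply 12979 bases against 7798 of merged exons, had 5.811 CPM per kb in BPAP and 5.005 in DMSO. That was above Spry2 in BPAP (4.555) and above Dusp5 and Spry2 in DMSO (3.496 and 3.392), unlike the FPKM order. Of the summed FPKM of the 6 phosphatases, Dusp4 took 50.4 ± 2.99% in BPAP and 49.9 ± 1.4% in DMSO, Dusp1 14.3 ± 2.72% in BPAP and 8.69 ± 1.7% in DMSO, and Dusp6 17.9 ± 0.36% in BPAP and 25.7 ± 2.81% in DMSO. With merged exon lengths the Dusp6 share was 14.6 ± 0.49% in BPAP and 21.5 ± 2.5% in DMSO, and the Dusp1 share 20.2 ± 3.59% in BPAP and 12.7 ± 2.37% in DMSO.

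Of 20 other dual-specificity phosphatase genes 12 were tested, and 3 rose and 0 fell (25% called, against 31.7% of all tested genes; median log2 fold change 0.17). In the fit corrected for length and GC, 2 rose (11.8% of all corrected genes rose), and the median was 0.06. They were Dusp8 and Dusp11, the latter named with its values known. Dusp11 did not pass before correction (log2 fold change 0.21, edgeR adjusted p = 0.102). After it, Dusp11 was at 0.45 (edgeR adjusted p = 0.0152). Dusp8, whose product acts on JNK and p38, had 22, 50 and 28 counts in BPAP libraries and 6, 13 and 5 counts in DMSO libraries. Even at these low counts the groups were apart, with a log2 fold change of 2.09 (SE 0.45, edgeR adjusted p = 0.00698), and 2.08 when corrected. Dusp28 and Dusp23 encode small atypical phosphatases, and rose 1.8-fold and 2.1-fold (edgeR adjusted p = 0.0192 and 0.0194). Neither passed once corrected for length and GC (edgeR adjusted p = 0.123 and 0.0892), without DMSO 2 only Dusp8 rose, and without DMSO 1, 1 gene of the list fell. The p38 and JNK phosphatase gene Dusp10 and the ERK phosphatase gene Dusp7, named with their values known, had log2 fold changes of -0.12 and -0.16 and did not pass.

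Of the 5 other Sprouty and Spred genes, 2 were tested and 0 passed in edgeR's test, at an adjusted or an unadjusted p under 0.05, or in DESeq2. Spred2 had a mean of 79.3 ± 13.9 CPM in BPAP and 67.1 ± 3.47 CPM in DMSO, and Spred3 11.9 ± 1.61 CPM in BPAP and 13.7 ± 1.39 CPM in DMSO (SD, n = 3 each). Both encode relatives of Spred1 that inhibit RAS to ERK signalling, and their groups overlapped. The median log2 fold change of this pair was 0.02, and 0.0069 when corrected for length and GC, where 0 passed.

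In the cascade from receptor adaptors through RAS and RAF to ERK, 2 of 26 tested genes rose and 7 fell (34.6% called, against 31.7%), with a median log2 fold change of -0.17. Rasgrp3, which encodes a RAS activator that responds to diacylglycerol, had 387, 339 and 417 CPM in BPAP cells and 693, 572 and 618 CPM in DMSO cells. It fell in every BPAP library relative to every DMSO library, by 0.72 on the log2 scale (edgeR adjusted p = 0.00147), and by 0.61 after correction for length and GC. Hras, one of the RAS genes, rose 1.55-fold, with means of 16.1 ± 1.58 CPM in BPAP and 10.4 ± 1.2 CPM in DMSO (SD, n = 3 each, edgeR adjusted p = 0.00872), a log2 fold change of 0.64, or 0.55 when corrected. Nf1, the gene of neurofibromin, which Spred1 brings to the membrane, and Braf, a RAF kinase gene, were 1.32-fold and 1.37-fold lower in BPAP. The merged exons of Nf1 hold 15850 bases and those of Braf 13862. After correction for length and GC their values on the log2 scale were -0.01 and 0.00. In the whole list 3 genes then rose and 1 fell (11.8% and 10.9% of all corrected genes), and the median was -0.0016. Without DMSO 1 or without BPAP 3, 4 genes of the list fell, and the number that rose was 1 without DMSO 1 or DMSO 2 and 4 without DMSO 3.

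Of 23 tested genes of the p38 and JNK cascades 2 fell and 0 rose, with a median log2 fold change of -0.03. These are 8.7% called, against 31.7% of all tested genes (16.2% higher and 15.5% lower). Map3k1, a kinase gene upstream of JNK, had 215, 171 and 243 CPM in BPAP cells and 325, 317 and 306 CPM in DMSO cells. Its groups were apart, with a log2 fold change of -0.59 (SE 0.12, edgeR adjusted p = 0.00548), or -0.50 when corrected for length and GC. Map3k4, a kinase gene upstream of p38 and JNK, lay close to the threshold at -0.25 (edgeR adjusted p = 0.049), and did not pass when any 1 of the 6 libraries was left out (edgeR adjusted p 0.0599 to 0.165). In each of these fits but the one without BPAP 3, 1 gene of the list fell. After correction for length and GC, 1 gene fell and 1 rose (10.9% and 11.8% of all corrected genes), and the list median was 0.03.

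Of 23 tested transcripts known to be induced by ERK, such as immediate early genes, 8 rose and 0 fell (34.8% called, against 31.7%), with a median log2 fold change of 0.20. In the fit corrected for length and GC, 6 rose and 0 fell (11.8% and 10.9% of all corrected genes), and the median was 0.10. Plaur, the gene of the urokinase receptor, had 13.7, 18.0 and 12.2 CPM in BPAP cells and 7.71, 5.87 and 6.83 CPM in DMSO cells. Fos, of the AP-1 transcription factors, had 43.0, 26.9 and 36.7 CPM in BPAP cells and 15.1, 17.8 and 18.5 CPM in DMSO cells. In both the groups were apart, with log2 fold changes of 1.11 and 1.05 (edgeR adjusted p = 0.00231 and 0.00219). Ier2, an immediate early gene, and Lif, a cytokine gene, rose 1.83-fold and 1.94-fold (edgeR adjusted p = 0.000884 and 0.0051). When corrected for length and GC, the log2 fold changes of Plaur, Fos, Ier2 and Lif were 0.90, 0.82, 0.56 and 0.88 (edgeR adjusted p = 0.00711, 0.0169, 0.0095 and 0.00914). Etv4 and Etv5, ETS factor genes often read as ERK targets beside Dusp6 and named with their values known, did not pass (log2 fold changes of 0.07 and 0.15). Without DMSO 2 or without DMSO 3 the number that rose was 4, without BPAP 1 it was 5, and without BPAP 2, 1 gene fell.

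**Figure D4:**
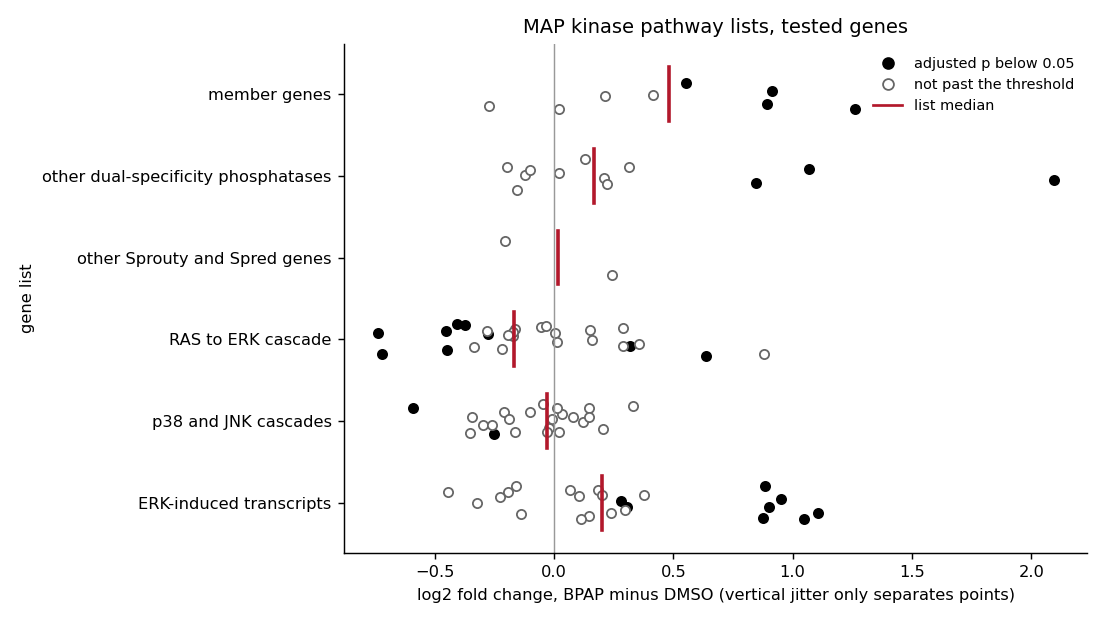
Log2 fold changes (BPAP minus DMSO, horizontal axis) of all tested genes of the members and of the 5 pathway lists, 1 point a gene, filled where the adjusted p was under 0.05, with a red bar at the list median. The medians are 0.48 for the members, 0.17, 0.02, -0.17 and -0.03 for the next 4 lists and 0.20 for the ERK-induced transcripts.

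The genes outside these lists whose log2 CPM followed Dusp1 most closely over the 6 libraries were Rsad2, Pea15a and Gsg1, with Pearson correlations of 0.9975, 0.9966 and 0.9945. They share the group difference and the libraries with Dusp1, so the correlations are descriptions and carry no p. Rsad2, an interferon-induced antiviral gene, averaged 4.85 CPM in BPAP and 1.75 CPM in DMSO, Pea15a 212 CPM in BPAP and 152 CPM in DMSO, and Gsg1 3.91 CPM in BPAP and 2.27 CPM in DMSO.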

How the data were processed

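RNA of 3 BPAP and 3 DMSO libraries of RAW 264.7 cells was extracted with TRIzol and made into libraries with the VAHTS Universal V6 kit, per the labels' protocols. The authors deposited raw counts and FPKM values per gene and library, per the file headers. The submitters' processing notes name HISAT2 2.0.4, StringTie 1.3.3b, edgeR and GRCm38 with no role or order. The strand setting and annotation release are not stated in the labels. Groups came from the treatment label and replicate numbers from the titles.

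The counts as deposited were tested with edgeR 4.0.16 in R 4.3.3 (default expression filter, TMM, robust quasi-likelihood, treatment only); p-values were adjusted by Benjamini-Hochberg over 11711 genes, with a threshold of 0.05. The script was tested on simulated data, where 65.7% of 1.5-fold changes and 100% of 2-fold and 4-fold changes were recovered. Of its 184 calls 7 were false, and changes smaller than 1.5-fold were not simulated. Standard errors and 95% intervals were derived from each gene's F statistic. CPM are TMM-normalised. A limit of 3 counts is 0.217 to 0.271 CPM, which covers counting error only. All pairs of libraries differed by more than sampling noise (smallest chi-square per degree of freedom 6.64). Exon lengths, GC content and overlaps are from GENCODE M21, promoters from RefSeq GRCm38.p6.

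Members, lists and motifs were chosen with earlier results of these data known. Named genes are the members, in each list the called genes of smallest p, at most 4 (2 genes where none was called), and the 3 genes most correlated with the member of smallest p. Exceptions are marked, and Mertk is named as a marker with no counts and Itgam as a marker with 2 rows. Alternatives were DESeq2 1.42.0, its size factors, upper quartile scaling, no filter, limma 3.58.1 (voom, and trend on log2(FPKM + 1) for genes averaging 1 FPKM or more), the replicate number as a block, each library left out, and removal of each library's lowess trend (span 0.3) with exon length and GC content.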

Additional observations from a re-analysis of the deposited data

How the results depend on the processing

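Dusp1, Dusp2, Dusp4 and Dusp5 passed in the same direction under all 14 alternatives, with log2 fold changes of 1.06 to 1.40, 0.54 to 1.02, 0.38 to 0.61 and 0.72 to 1.01, and Spry2 passed under none (0.17 to 0.61). With the length and GC trend removed, 2646 genes passed in place of 3715, Dusp16 passed at 0.36, and Dusp6 (-0.135), Spred1 (0.0057) and Braf (0.0002) changed sign. In that fit 1 gene of the p38 and JNK list was higher and 1 lower, and 1 gene of the RAS to ERK list was lower. Dusp6 was also negative with limma-trend on FPKM (-0.0037), without BPAP 3 (-0.0249) and without DMSO 1 (-0.0858), none of which passed. The p38 and JNK genes that were lower numbered 4 with DESeq2 size factors, 1 with upper quartile scaling and 4 with limma-trend. With 1 library left out, genes higher overall ranged from 1244 without DMSO 1 to 1654, against 1901, and members lower from 0 to 1, the 1 being Spred1 without BPAP 2 (-0.39, range -0.39 to -0.20). The log2 fold change of Dusp6 then ranged from -0.0858 to 0.0855 and that of Dusp16 from 0.13 to 0.29. In the same fits, ERK-induced transcripts numbered 4 to 7 higher and 0 to 1 lower, other dual-specificity phosphatases 1 to 3 higher and 0 to 1 lower, RAS to ERK genes 1 to 4 higher and 4 to 7 lower, and p38 and JNK genes 1 to 2 lower. Of the other named genes, Dusp23 lost its call in 5 of 14 alternatives, Dusp28 in 2, Map3k4 in 9 and Nf1 and Braf in 1 each. The cause of these differences was not tested. Whether the replicate numbers pair the libraries is not stated in the labels, and no test was run on it. Same-numbered BPAP and DMSO libraries deviated together with correlations of 0.101, 0.054 and 0.01, and differently numbered ones with -0.086 to 0.045. Each BPAP library correlated most with the DMSO library of its number, by narrow margins for BPAP 2 and BPAP 3. With the replicate block 4236 genes and 4 members passed.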
